A study of Populus ussuriensis with 12 samples.

Results

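The genes described here are 167 of the 35907 listed for roots of the poplar Populus ussuriensis. In wild-type plants their RNA levels were much higher on polyethylene glycol (PEG) than on control medium. In plants that overexpressed PuC3H35 their levels on PEG were lower, and their gains on PEG were smaller to varying degrees. The members were chosen by a rule on 4 group means of log2(FPKM + 1), where FPKM is a read density per length of gene, scaled to the library total. The mean of wild-type roots on PEG had to lie at least 2 above that of wild-type controls. The mean of overexpressor controls had to lie less than 0.5 above that of wild-type controls. The mean of overexpressor roots on PEG had to lie at least 1 below that of wild-type roots on PEG, and the highest of the 4 groups had to average at least 5 FPKM. All these differences chose the members, so the levels that follow are a description and carry no test.

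The 4 groups were overexpressor (OE) roots on PEG, wild-type (WT) roots on PEG, OE roots on control medium and WT roots on control medium, with 3 libraries each. All plants were grown in vitro, were 7 days old when moved to new medium and stayed there for 7 days, with 6% PEG6000 for the PEG groups and 0% for the controls. OE libraries carry the numbers 1, 3 and 4 on PEG and 1, 2 and 5 on control medium, and WT libraries carry 1, 2 and 3 on both media. The promoter that drives PuC3H35, the number of transgenic lines and the meaning of these numbers are not stated in the labels, and neither is whether each library came from separate plants. The spread between libraries may therefore be partly technical, and the effect of the gene cannot be told apart from that of the transgenic material.

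PEG6000 is a large polymer that plant cells hardly take up, and it lowers the water potential of the medium, so that roots lose water as they do in drying soil. Plants answer such osmotic stress with the hormone abscisic acid (ABA) and with ABA-independent signals, which together switch on many genes in roots, among them genes for protective proteins, osmolyte synthesis and detoxification. PuC3H35 belongs to the CCCH zinc finger family, whose proteins bind RNA or DNA and include regulators of stress responses in other plants. No gene names came with the identifiers (0 are paired with a name), so the members are given by identifier and no function is assigned to any of them. For the same reason root markers and the level of PuC3H35 itself were not checked here.

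Recovered read totals ran from 10566326 to 12053123 per library. Some libraries stood apart from the other libraries of their group among the members. Library 2 of the WT controls was the highest of its 3 in 102 of the 167 members (61.1%, against 29.6% of the 24976 genes tested), and library 2 of WT on PEG was the lowest of its 3 in 113 members (67.7%, against 30.1%). Library 4 of OE on PEG was the highest of its 3 in 92 members (55.1%, against 35.7%), and library 3 was the lowest in 98 members (58.7%, against 26.8%). What sets these libraries apart was not tested, and values without them are given for only some of the results below.

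Summed over the members, the RNA level reached 3613, 3101 and 4088 FPKM in libraries 1, 3 and 4 of OE on PEG, and 17085, 12597 and 15801 FPKM in the WT libraries on PEG. The sums were 1103, 841 and 993 FPKM in the OE controls, and 883, 1446 and 990.2 FPKM in the WT controls. OE roots on PEG thus stood above all 6 controls and well below the WT roots on PEG, while the controls of both genotypes overlapped. As a share of all FPKM, the members made up 0.582% ± 0.0840 in OE on PEG and 2.45% ± 0.395 in WT on PEG, against 0.159% ± 0.0209 in OE controls and 0.181% ± 0.0483 in WT controls (SD, n = 3 each). The 10 members with the highest mean FPKM in WT on PEG held 29.7% to 38.9% of the members' sum in OE on PEG and 38.1% to 44.0% in WT on PEG. In bulk roots, fewer cells that express a gene and less RNA per cell cannot be told apart.

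**Figure D1:**
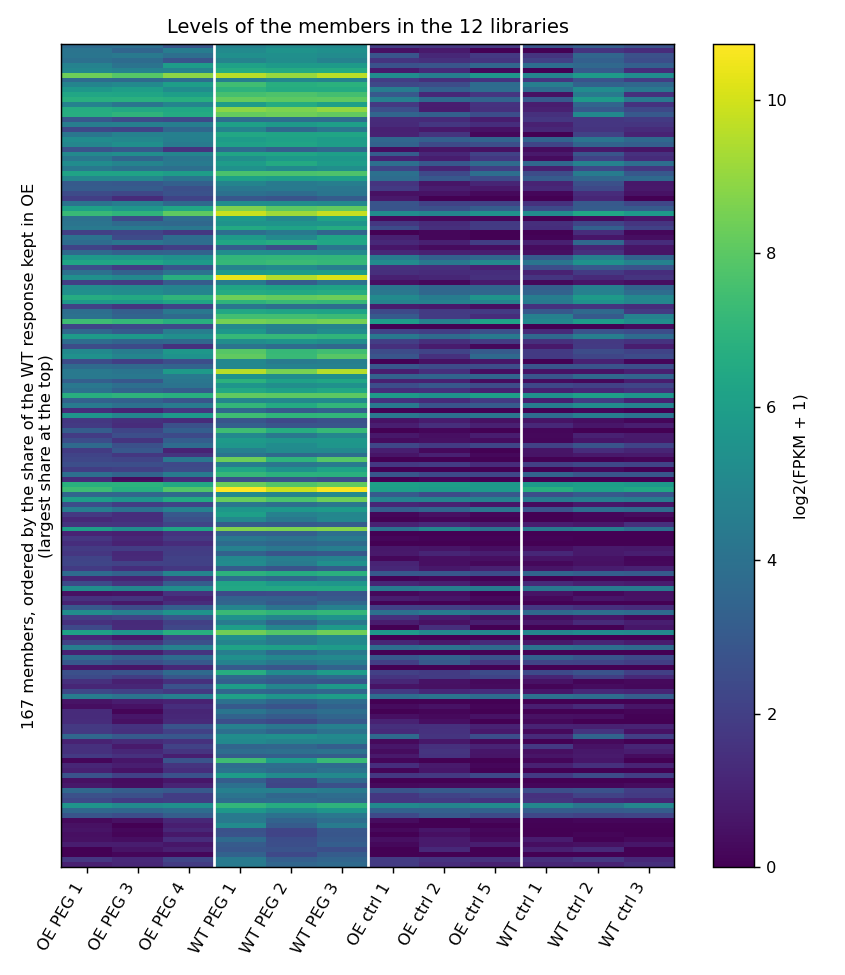
Heat map of log2(FPKM + 1), coloured from dark (0) to yellow (highest), for the 167 members in rows and the 12 libraries in columns, with OE and WT on PEG at the left and their controls at the right. The WT libraries on PEG are the brightest block, and the OE libraries on PEG lie between them and the controls. Rows are ordered by the share of the WT response kept in OE, largest at the top. OE on PEG averages at least 1 below WT on PEG in every row, and lies near the control level at the bottom.

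Over the 167 members, the median of the mean levels was 6.64 FPKM in OE on PEG and 34.1 FPKM in WT on PEG, against 1.41 FPKM in OE controls and 1.71 FPKM in WT controls. On the log2(FPKM + 1) scale, the median PEG response, which is the mean on PEG minus the mean on control medium, was 1.31 in OE (middle 50% of members 0.74 to 1.96) and 3.17 in WT (2.47 to 4.21). The medians over all 24976 genes tested were −0.05 in OE and −0.04 in WT. On PEG, the OE level was a median 22.3% of the WT level (middle 50% 11.8% to 35.6%), against 107% over all genes tested. The difference between OE and WT controls had a median of 0.00, against 0.08 over all genes tested.

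Most members kept part of the response. The share kept, defined as the OE response divided by the WT response on the log2 scale, had a median of 0.39 and ran from −0.03 to 0.84. It was under 0.25 in 39 members (23.4%), from 0.25 to under 0.5 in 72 (43.1%) and 0.5 or more in 56 (33.5%). Over all 405 genes past the WT response and level thresholds, these shares were 35.6%, 35.3% and 29.1%. Those 405 genes include the members and the genes with raised OE controls. The share is built from the differences that the rule used, which also set apart the genes with raised OE controls. Nothing is therefore read from the comparison with the 405 genes. The share depends on the constant added before the logarithm. With 0.1 in place of 1 the rule also chose 167 genes, and over the genes then chosen the median share was 0.50. On the linear scale, OE roots on PEG held under 10% of the WT level on PEG in 27 members, 10% to 25% in 64 members, 25% to 50% in 75 members and more in 1 member.

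**Figure D2:**
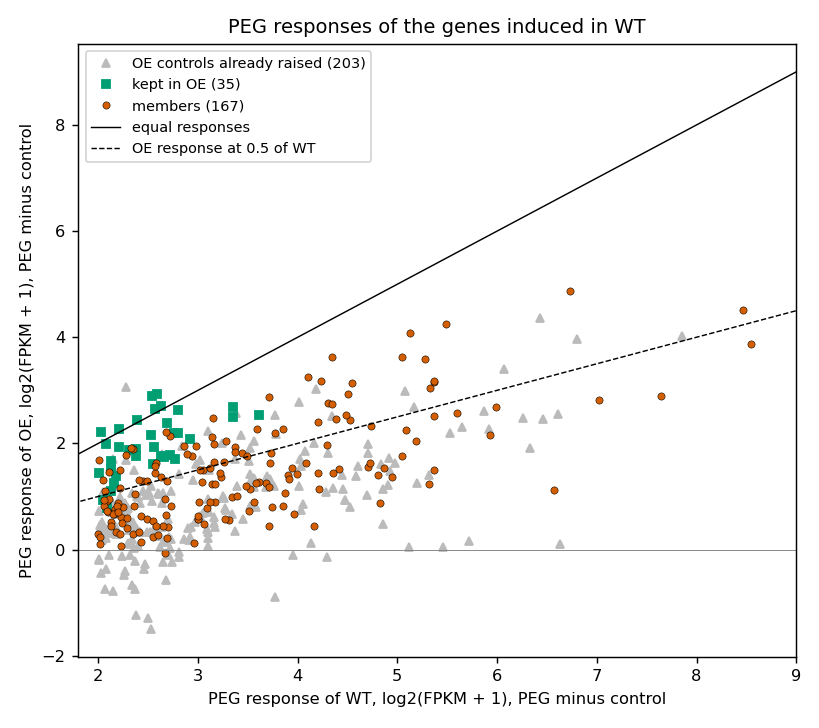
PEG response of OE (vertical axis) against that of WT (horizontal axis), both as log2(FPKM + 1) on PEG minus control medium, for the 405 genes past the WT response and level thresholds. The 167 members (orange) lie on both sides of the dashed line, which marks 0.5 of the WT response, most of them below it. The 203 genes with raised OE controls (grey) and the 35 genes less than 1 lower in OE on PEG (green) are shown for comparison.

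The OE roots did respond to PEG in many members. All 3 OE libraries on PEG lay above all 3 OE controls in 131 members, against 6.45% of all genes tested. The OE response was 1 or more in 105 members (62.9%, against 1.41% of all genes tested) and 2 or more in 39 (23.4%, against 0.328%). It was under 0.5 in 22 (13.2%, against 95.8%). In limma's fit over all 24976 genes, 104 members were called higher in OE on PEG than in OE controls (adjusted p under 0.05), against 1.54% of all genes, and without library 1 of OE on PEG the number was 68. These libraries also entered the rule through the other contrasts, so the counts describe the members and support nothing further.

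The other contrasts of the same fit were used by the rule, and nothing is read from their counts. All 167 members were called higher in WT on PEG than in WT controls (12% of all genes), and 159 were called lower in OE on PEG than in WT on PEG (5.3%), and 0 were called higher (9.19%). The interaction of genotype and PEG was called in 113 members, each with a smaller PEG response in OE (4%). Libraries of WT on PEG did not overlap WT controls in any of the 167 members (18.9% of all genes), and did not overlap OE on PEG in 166 (12.4%). The exception was Potri.001G462200.v3.1, with 25.7, 16.0 and 59.6 FPKM in OE on PEG and 68.7, 55.9 and 57.1 FPKM in WT on PEG; it is also the 1 member with an OE mean above 50% of the WT mean (55.7%).

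Of the members that responded most in WT, Potri.001G391200.v3.1 had the largest response. It reached 19.4, 16.9 and 55.7 FPKM in OE on PEG and 761, 378 and 747 FPKM in WT on PEG, against 0.819, 1.76 and 0.302 FPKM in OE controls and 0.446, 0.470 and 0.948 FPKM in WT controls. The PEG groups did not overlap each other or the controls, and both control groups lay under 2 FPKM. Its PEG response was 3.88 ± 0.61 in OE and 8.55 ± 0.36 in WT (log2 ± SE from the spread of the 3 libraries in each group), so 0.45 of the response was kept. Library 4 stood above the other OE libraries on PEG, and library 2 below the other WT libraries on PEG.

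Potri.007G120400.v3.1 also had library 4 highest in OE on PEG and library 2 lowest in WT on PEG, at a higher level. It held 41.1, 31.2 and 107 FPKM in OE on PEG and 1308, 731 and 1097 FPKM in WT on PEG, while its controls held 0.962 to 1.77 FPKM in OE and 1.43 to 2.14 FPKM in WT. Its response was 4.52 ± 0.55 in OE and 8.47 ± 0.28 in WT. OE roots on PEG therefore held 5.72% of the WT level on PEG, although 0.53 of the response was kept on the log2 scale.

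Several members were close to silent in every control. Potri.011G110300.v3.1 had 3.90, 3.53 and 18.3 FPKM in OE on PEG and 319, 126 and 240.2 FPKM in WT on PEG, and at most 0.0556 FPKM in OE controls and 0.108 FPKM in WT controls. Potri.008G031000.v3.1 had 7.91, 3.71 and 8.30 FPKM in OE on PEG and 165, 102 and 143 FPKM in WT on PEG, with at most 0.128 FPKM in OE controls and 0.130 FPKM in WT controls. For both, OE on PEG lay between the controls and WT on PEG without overlap, at 3.75% and 4.86% of the WT level on PEG. In all, 46 members stayed under 1 FPKM in each of the 6 controls, as did 0.969% of all genes tested.

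Potri.004G067600.v3.1 had the largest genotype difference on PEG and the widest spread among OE libraries. It had 0.136, 0.546 and 5.61 FPKM in OE on PEG, against 169.5, 59.4 and 148 FPKM in WT on PEG. Its controls held 0 to 0.147 FPKM in OE and 0 to 0.563 FPKM in WT. The difference between OE and WT on PEG was −5.67 ± 0.91, and libraries 1 and 3 of OE on PEG stayed within the range of the controls while library 4 did not.

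Potri.012G006800.v3.1 was the most even in OE on PEG among the 6 members with the largest WT response. It had 98.6, 88.1 and 81.9 FPKM in OE on PEG and 466, 387 and 503 FPKM in WT on PEG. Its OE controls held 4.93, 0.795 and 1.78 FPKM and its WT controls 0.953, 6.88 and 3.96 FPKM, so that the control groups overlapped. The response was 4.87 ± 0.51 in OE and 6.73 ± 0.60 in WT, a share of 0.72.

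The other 3 of the 6 most abundant members in WT on PEG had more RNA on control medium than the members above. Potri.002G054900.v3.1, first by mean FPKM in WT on PEG, had 163, 106 and 223 FPKM in OE on PEG and 1689, 939.6 and 1575 FPKM in WT on PEG. Its controls held 54.8 to 63.1 FPKM in OE and 68.7 to 105 FPKM in WT, without overlap. Its response was 1.42 ± 0.32 in OE and 3.99 ± 0.32 in WT, and the difference between OE and WT controls was −0.54 ± 0.19.

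Potri.011G110200.v3.1 had 148, 126 and 265 FPKM in OE on PEG and 937, 579 and 873 FPKM in WT on PEG, with 28.3 to 40.3 FPKM in OE controls and 34.9 to 80.8 FPKM in WT controls. Potri.016G049400.v3.1 kept the highest level of all members in OE on PEG, with 328, 237 and 468 FPKM, against 769, 539 and 788 FPKM in WT on PEG. Its controls held 22.7 to 47.6 FPKM in OE and 28.8 to 56.3 FPKM in WT. In both genes the control groups overlapped and the PEG groups did not, and the shares kept were 0.59 and 0.79. Across all members, 9 averaged 100 FPKM or more in OE on PEG (5.39%, against 4.12% of all genes tested). In WT on PEG 36 did so (21.6%, against 4.24%), while 15 averaged under 1 FPKM in OE on PEG (8.98%, against 5.13%).

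**Figure D3:**
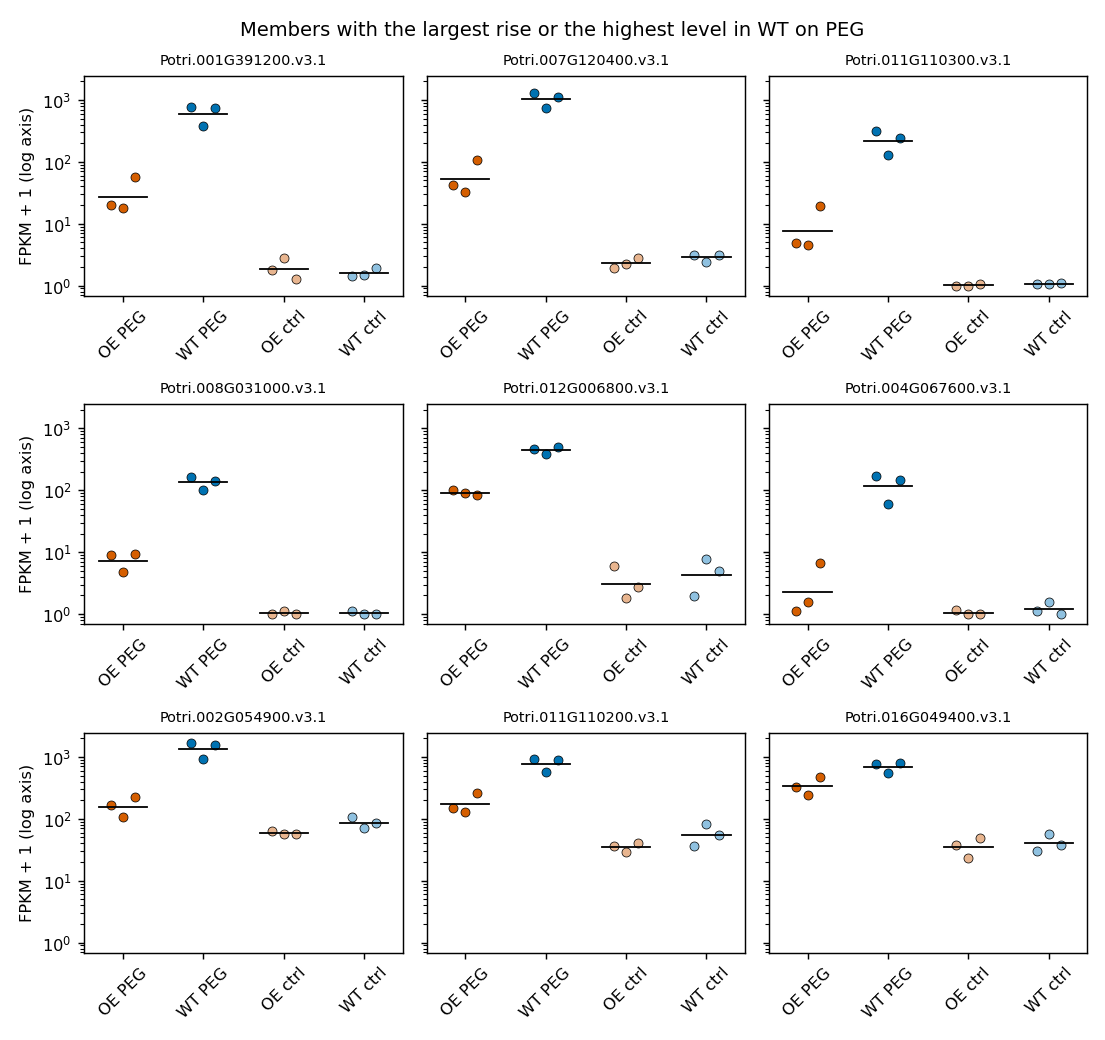
FPKM + 1 on a log axis for the 9 members with the largest response or the highest level in WT on PEG; each point is 1 library (in number order from left to right) and each bar the mean on the log scale. In all 9 genes the OE libraries on PEG lie below every WT library on PEG, and library 4 of OE on PEG is the highest of its group in 8 of the 9 panels.

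At the low end of the shares, the pair Potri.002G132000.v3.1 and Potri.002G132100.v3.1 had almost no PEG response in OE. Potri.002G132000.v3.1 had 0.946, 1.22 and 2.65 FPKM in OE on PEG and 20.1, 10.7 and 12.1 FPKM in WT on PEG, against 2.64, 1.57 and 0.943 FPKM in OE controls and 1.20, 1.12 and 1.70 FPKM in WT controls. Potri.002G132100.v3.1 had 2.2, 1.33 and 3.72 FPKM in OE on PEG and 20.5, 8.47 and 10.3 FPKM in WT on PEG, with controls of 1.84 to 2.67 FPKM in OE and 1.36 to 2.46 FPKM in WT. In both genes OE on PEG overlapped the controls, and the shares were −0.03 and 0.03. Potri.002G132000.v3.1 was the 1 member whose mean in OE on PEG lay under that of the OE controls, by less than the spread of either group.

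The other members with the smallest shares had few reads in OE. Potri.T134100.v3.1 had 2 reads in all 3 OE libraries on PEG together and 140 reads in those of WT on PEG (4.23 to 9.38 FPKM), and 0 reads in the 6 controls. Potri.018G139850.v3.1, with a recovered length of 187 bases the shortest of the members, had 3 reads in OE on PEG and 36 reads in WT on PEG. Their values in OE are limited by counting at this depth. Over the members, the reads summed over 3 libraries had a median of 252 in OE on PEG and 1272 in WT on PEG.

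For 5 members, named after their values were seen, there was no read in any of the 6 controls. Besides Potri.T134100.v3.1 these were Potri.017G153600.v3.1, Potri.002G218300.v3.1, Potri.011G126100.v3.1 and Potri.004G007000.v3.1. Potri.017G153600.v3.1 had 1.37, 0.636 and 3.48 FPKM in OE on PEG, against 40.3, 21.2 and 31.2 FPKM in WT on PEG. Potri.002G218300.v3.1 had 1.63, 1.01 and 1.55 FPKM in OE on PEG, against 12.3, 11.1 and 12.1 FPKM in WT on PEG. In each of these 4 genes all 3 OE libraries on PEG had reads, at 9 to 51 reads per gene, so the genes were read in both genotypes on PEG and in neither on control medium.

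At the high end, the 4 members with the largest shares (0.82 to 0.84) all had lower means in OE controls than in WT controls, by 0.58 to 1.10 on the log2 scale. The share is computed from these controls, and the rule keeps OE on PEG at least 1 below WT on PEG. At the WT responses of these genes such shares require lower OE controls, so nothing is read from this. Potri.017G107400.v3.1 had 12.6, 14.0 and 6.36 FPKM in OE on PEG and 25.3, 32.5 and 31.4 FPKM in WT on PEG, against 2.90, 2.34 and 2.40 FPKM in OE controls and 5.80, 8.61 and 5.68 FPKM in WT controls. Potri.011G149400.v3.1 had 14.3, 12.4 and 5.85 FPKM in OE on PEG and 26.9, 37.5 and 26.0 FPKM in WT on PEG, against 2.09, 1.76 and 2.03 FPKM in OE controls and 3.05, 8.64 and 4.85 FPKM in WT controls. In both genes OE lay below WT on each medium without overlap.

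The remaining genes with such shares were less even in the controls. Potri.T069600.v3.1 had 17.2, 19.1 and 14.3 FPKM in OE on PEG and 39.0, 39.5 and 35.0 FPKM in WT on PEG, with OE controls of 1.30 to 6.04 FPKM and WT controls of 2.02 to 10.7 FPKM. Potri.001G106950.v3.1 had 16.3, 10.4 and 21.5 FPKM in OE on PEG and 34.5, 44.2 and 39.8 FPKM in WT on PEG, with OE controls of 0 to 0.703 FPKM and WT controls of 0 to 2.07 FPKM. Their control groups overlapped and their PEG groups did not.

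On control medium, the rule set an upper limit of 0.5 on the difference between OE and WT and no lower one, so nothing is read from the counts that follow. The OE and WT control means lay within 0.25 of each other in 96 members (57.5%), as in 52.9% of all genes tested. OE controls averaged at least 0.5 lower in 23 members (13.8%, against 6.85% of all genes) and at least 1 lower in 5 (2.99%, against 1.24%). In limma's fit 8 members were called lower in OE controls, against 7.56% of all genes, and 0 were called higher, against 12.8%. Without library 2 of the WT controls 4 members were called lower in OE controls and 1 higher. All 3 OE controls lay below all 3 WT controls in 13 members, against 13.7% of all genes, and above them in 10, against 24.3%.

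The largest such difference, in Potri.016G002900.v3.1, was −2.09 ± 0.75. This gene, singled out after its values were seen, had 15.1, 10.1 and 12 FPKM in OE on PEG and 178, 176 and 159 FPKM in WT on PEG, against 7.17, 2.63 and 1.53 FPKM in OE controls and 24.8, 7.23 and 26.2 FPKM in WT controls. OE roots on PEG thus stayed below 2 of the 3 WT controls. The other members at least 1 lower in OE controls were Potri.011G025900.v3.1 (−1.43), Potri.002G145500.v3.1 (−1.41), Potri.017G107400.v3.1 (−1.10) and Potri.011G149400.v3.1 (−1.05). Potri.002G145500.v3.1 had 21.0, 14.9 and 21.0 FPKM in OE on PEG and 137, 92.1 and 130.3 FPKM in WT on PEG, with OE controls of 5.92 to 19.1 FPKM and WT controls of 21.6 to 35.0 FPKM, so that all its OE libraries on PEG lay below every WT control.

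Some members carried neighbouring identifiers, in a share close to that of all genes past the WT response and level thresholds. With identifiers at most 5 places apart taken as neighbours in the list, 58 of the 167 members (34.7%) fell into 22 runs, against 38 of the 203 genes with raised OE controls (18.7%), 2 of the 35 genes less than 1 lower in OE on PEG (5.71%) and 127 of all 405 genes past the WT response and level thresholds (31.4%). The sets differ in size, which affects how often members meet. The shares are therefore given as a description, and nothing particular to the members is read from them. Whether neighbouring genes share sequence was not examined, and how the authors' counting treated reads that match several genes is not stated, so levels within a run are uncertain where genes are near copies.

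The longest run, Potri.019G064300.v3.1 to Potri.019G065200.v3.1, held 7 members among 9 identifiers. The means of the 7 ran from 0.789 to 4.29 FPKM in OE on PEG and from 7.61 to 38.1 FPKM in WT on PEG, and their shares from 0.21 to 0.35. Its highest member, Potri.019G065200.v3.1, had 2.89, 3.53 and 6.44 FPKM in OE on PEG and 43.7, 27.4 and 43.1 FPKM in WT on PEG, against 0.396 to 1.84 FPKM in OE controls and 0.219 to 0.588 FPKM in WT controls. Between them, Potri.019G064600.v3.1 was no member and moved the other way in WT, with 3.48, 3.38 and 1.97 FPKM in OE on PEG and 3.93, 2.94 and 5.36 FPKM in WT on PEG, against 3.50 to 3.78 FPKM in OE controls and 9.20 to 10.7 FPKM in WT controls. All its WT libraries on PEG lay below its WT controls, while the 7 members around it were all higher. Potri.019G065100.v3.1 and Potri.019G065200.v3.1 had the same recovered length of 1516 bases.

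In the run Potri.011G110100.v3.1 to Potri.011G110400.v3.1 all 4 consecutive identifiers were members, with shares of 0.68, 0.59, 0.38 and 0.78. Besides the 2 genes given above, Potri.011G110400.v3.1 had 27.8, 32.5 and 64.0 FPKM in OE on PEG and 173, 103 and 113 FPKM in WT on PEG, and Potri.011G110100.v3.1 had 3.99, 3.56 and 11.0 FPKM in OE on PEG and 27.1, 11.6 and 18.2 FPKM in WT on PEG. All 4 genes had their highest OE value on PEG in library 4 and their lowest WT value on PEG in library 2. Control levels differed widely within the run, up to 80.8 FPKM for Potri.011G110200.v3.1 and 0.108 FPKM for Potri.011G110300.v3.1.

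The run Potri.007G120300.v3.1 to Potri.007G120700.v3.1 held 4 members among 5 identifiers. Next to Potri.007G120400.v3.1 above, Potri.007G120600.v3.1 averaged 65.7 ± 16.3 FPKM in OE on PEG and 305 ± 69.5 FPKM in WT on PEG, and Potri.007G120300.v3.1 averaged 35.0 ± 13.8 and 184 ± 46.5 FPKM in these groups (SD, n = 3 each). Potri.007G120700.v3.1 was much lower, at 1.96 ± 1.32 FPKM in OE on PEG and 9.76 ± 1.25 FPKM in WT on PEG, and kept a share of 0.18, against 0.47 to 0.59 for the other 3.

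The other runs named were pairs. Potri.001G391200.v3.1 and Potri.001G391300.v3.1 both kept 0.45, although the second averaged 10.8 FPKM in OE on PEG and 90.1 FPKM in WT on PEG, far below the first. Potri.001G270500.v3.1 and Potri.001G270600.v3.1 kept 0.27 and 0.29. Potri.001G270600.v3.1 had 37.4, 25.0 and 44.8 FPKM in OE on PEG and 154, 126 and 137 FPKM in WT on PEG, with controls of 15.2 to 21.7 FPKM in OE and 11.7 to 14.1 FPKM in WT. Potri.016G049400.v3.1 and Potri.016G049600.v3.1 differed more, with shares of 0.79 and 0.39. In 14 of the 22 runs all shares lay within 0.2 of each other, where the middle 50% of all members spanned 0.26 to 0.56. Whether neighbours were more alike than other members was not tested. Genes of a run were measured in the same libraries, so their shares are not independent.

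**Figure D4:**
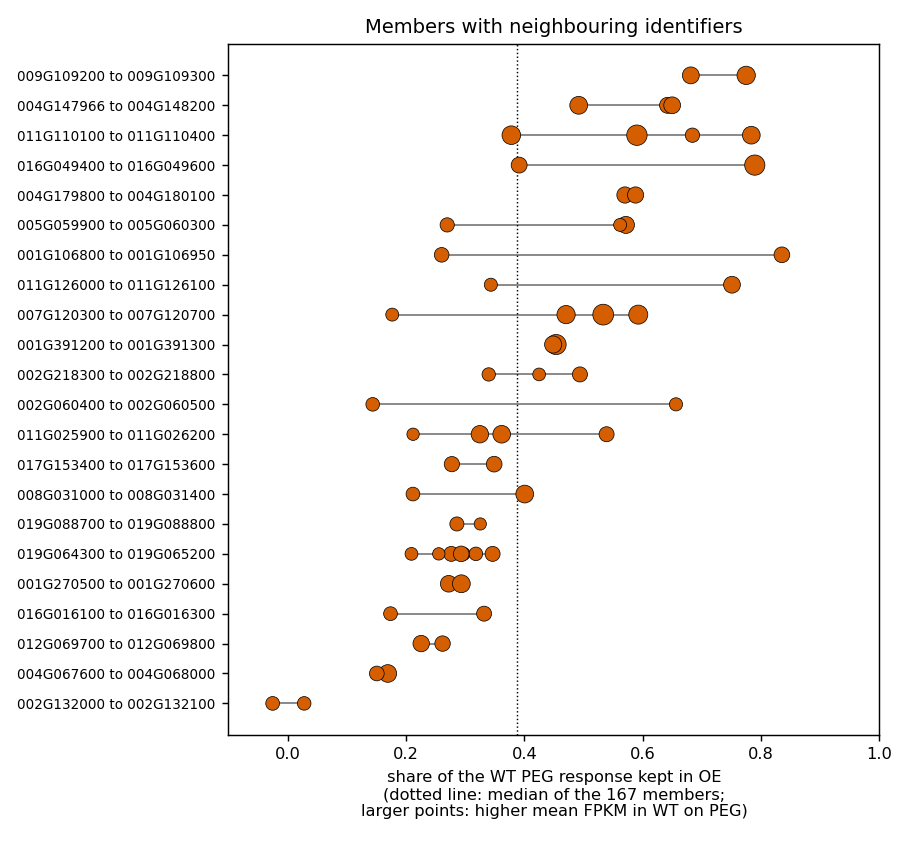
Share of the WT PEG response kept in OE (horizontal axis, no unit) for the 58 members in 22 runs of neighbouring identifiers, 1 run per line, with larger points for higher mean FPKM in WT on PEG and a dotted line at the median of all 167 members (0.39). The lines range from the pair near 0 at the bottom to the pair at 0.68 and 0.77 at the top, and the longest run, with 7 points, lies between 0.21 and 0.35.

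The members varied more between libraries than genes did in general. The median SD of log2(FPKM + 1) over 3 libraries was 0.36 in OE on PEG and 0.21 in WT on PEG, against 0.27 in OE controls and 0.30 in WT controls. Over all genes tested the medians were 0.17, 0.13, 0.16 and 0.16 in the same groups. A set of 30 members (18.0%, against 0.837% of all genes tested) had a value in library 2 of the WT controls at least 1 above the mean of libraries 1 and 3 on the log2 scale. Such genes made up 5.42% of the 203 genes with raised OE controls and 45.7% of the 35 genes less than 1 lower in OE on PEG. The 30 members were picked on their control values, and the contrasts below are a description.

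Potri.009G109300.v3.1 had the largest deviation of this kind. On PEG its levels were even, at 79.2, 79.0 and 64.1 FPKM in OE and 187, 212 and 183 FPKM in WT, while it had 6.86, 1.38 and 2.24 FPKM in OE controls and 0.402, 20.1 and 1.77 FPKM in WT controls. Its neighbour Potri.009G109200.v3.1 had WT controls of 0, 3.34 and 1.09 FPKM. Potri.004G184000.v3.1, singled out after its values were seen, had 10.4, 8.81 and 4.74 FPKM in OE controls and 1.83, 33.0 and 6.88 FPKM in WT controls. In these genes 1 WT control stood above all OE controls and the others did not.

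The 30 members also had higher levels than the other 137, with a median of 73.7 FPKM in the 30 and 29.3 FPKM in the 137 in WT on PEG, and 4.39 and 1.11 FPKM in WT controls. The part of these levels in the shares below was not tested. The median share kept was 0.63 in the 30 and 0.35 in the 137, and 0.54 and 0.34 when library 2 was left out of the WT controls. Library 4 of OE on PEG, high in most members, was the lowest of its group in 19 of the 30 (63.3%) and in 26 of the 137 (19.0%). With only that library for OE on PEG and without library 2 of the WT controls, the median shares were 0.54 and 0.41, and with only libraries 1 and 3 they were 0.57 and 0.30. Library 2 of WT on PEG was the lowest of its group in 14 of the 30 (46.7%) and in 99 of the 137 (72.3%).

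A further 32 members (19.2%, against 0.476% of all genes tested) had library 2 of WT on PEG at least 0.5 below, and library 4 of OE on PEG at least 0.5 above, the mean of the other libraries of its group. None of the 30 members was among them. They included 8 of the 9 leading genes above, with Potri.001G391200.v3.1, Potri.007G120400.v3.1, Potri.002G054900.v3.1, Potri.011G110200.v3.1 and Potri.016G049400.v3.1 at the highest levels. Their median share was 0.30, and 0.23 without both libraries, where the median over all members was 0.34. They were picked on the libraries left out, so the fall to 0.23 is built in. Potri.008G051500.v3.1 went the other way, with 2.60, 6.57 and 1.07 FPKM in OE on PEG and 24.7, 33.7 and 32.4 FPKM in WT on PEG, so that library 4 was its lowest in OE and library 2 its highest in WT.

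Across the 167 members, the deviation of library 2 of the WT controls went with that of library 2 of WT on PEG (Spearman 0.41, against 0.06 over the 24976 genes tested) and ran against that of library 4 of OE on PEG (−0.40, against 0.33). The deviations of library 2 of WT on PEG and library 4 of OE on PEG also ran against each other (−0.54, against −0.05). Each deviation is taken from the other libraries of its own group, and all members share these libraries, so the coefficients describe the libraries and carry no p.

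**Figure D5:**
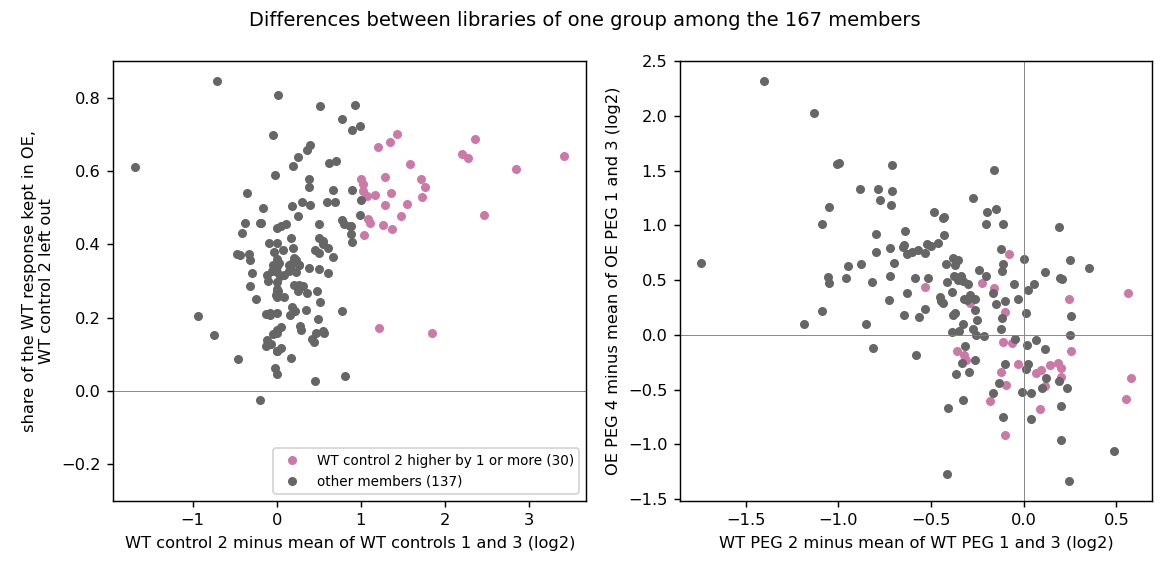
Left, share of the WT response kept in OE without library 2 of the WT controls, against that library's difference from the mean of WT controls 1 and 3 (log2); both axes use controls 1 and 3. Right, difference of library 4 of OE on PEG from libraries 1 and 3, against that of library 2 of WT on PEG from libraries 1 and 3 (log2); the 30 members high in library 2 of the WT controls (pink) lie mostly near or below 0 on the vertical axis, and the other 137 (grey) reach to the upper left.

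Each library was also described among members chosen without it. Leaving out 1 library at a time gave 158 to 180 members, which included 145 to 165 of the 167. In the left-out OE libraries 1, 3 and 4 on PEG, the median difference from WT on PEG was −1.81, −2.16 and −1.81, against −1.91, −1.77 and −2.04 in the libraries used, and 90.6%, 92.1% and 90.2% of these members were at least 1 lower. In the left-out WT libraries 1, 2 and 3 on PEG, the median rise over WT controls was 3.39, 2.88 and 3.18, and 96.8%, 81.1% and 92.9% of members were at least 2 higher. In the left-out OE controls 1, 2 and 5 the median difference from WT controls was 0.04, 0.00 and −0.05. A left-out WT control 2 gave the smallest WT response, a median of 2.83 with 80.4% of members at least 2 higher, against 3.52 and 3.36 for controls 1 and 3. The remaining libraries of each group still entered the choice, so these values are not independent of the rule.

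Genes lay close to each threshold on both sides. For the WT response, Potri.002G060500.v3.1 lay just inside at 2.00007 and Potri.017G107400.v3.1 at 2.01, with Potri.017G130300.v3.1 and Potri.012G007200.v3.1 outside at 1.99952 and 1.99706. For OE minus WT on PEG, Potri.011G057000.v3.1 and Potri.001G462200.v3.1 lay inside at −1.01 and −1.02, and Potri.007G038500.v3.1 and Potri.019G038900.v3.1 outside at −0.993 and −0.989. For the controls, Potri.011G066200.v3.1 and Potri.001G355100.v3.1 lay inside at 0.495 and 0.491, and Potri.001G270900.v3.1 and Potri.013G125000.v3.1 outside at 0.502 and 0.503. For the level, Potri.009G055000.v3.1 and Potri.012G054700.v3.1 lay inside at 5.003 and 5.03 FPKM, and Potri.002G074200.v3.1 and Potri.011G021900.v3.1 outside at 4.98 and 4.83 FPKM. The numbers of genes that failed a single criterion were 142 for the WT response, 81 for the controls, 35 for the PEG difference and 15 for the level.

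A property that the rule did not use was gene length. The recovered length had a median of 1146 bases over the members, against 1779 bases over all genes tested, 1163 bases over the 203 genes with raised OE controls and 1313 bases over the 35 genes less than 1 lower in OE on PEG. The members were thus shorter than genes in general and of about the length of the other genes with a strong WT response.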

How the data were processed

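RNA from roots was sequenced in 12 libraries of 4 groups, read from the tissue labels. A deposited file gave 1 FPKM value per gene identifier for 1 library, as judged from the values, which cannot tell fragments from reads; the authors' normalization was kept. The submitters' processing notes list HISAT2 2.1.0 and Bowtie2 2.2.3, with no role for either. Which counting tool, annotation and genome build were used is not given in the sources used here. FPKM steps gave back read numbers, and 100.0% of the 370737 values above 0 were whole within 0.01 read.

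Members and gene lists were chosen with earlier results of these data known. Levels were compared as log2(FPKM + 1), which understates changes of low genes. All 167 members passed the filter of 1 FPKM in 3 or more libraries. The WT libraries on PEG, where the members are high, suffice for this in each of them, so passing it says nothing about them. Limma 3.58.1 in R 4.3.3 (intensity trend, empirical Bayes, two-sided tests) was fitted to 24976 genes as 4 group means with 8 residual degrees of freedom. Calls used a Benjamini-Hochberg adjusted p under 0.05 over these genes. SE of single genes comes from the SDs of the 2 groups compared. The scripts for reading recovery and for limma were tested on simulated data.

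Named members are the 6 with the largest WT response, the 6 highest in WT on PEG, the 4 with the smallest and the 4 with the largest share kept, the 3 most variable in OE on PEG, the 6 runs with the highest FPKM and the genes next to each threshold; others are marked as chosen after their values were seen. Gene lists by product and promoter and protein sequences were not analysed here, since no annotation was at hand. Alternatives covered the pseudocount, filters, scaling, thresholds of the rule, limma-voom on recovered reads, smaller fits, the replicate block and each library left out. Replicate numbers were not used to pair the libraries, since the labels give them no meaning. Over all genes tested, deviations of same-numbered WT libraries correlated at 0.101, 0.076 and −0.014 across media (Pearson). Among the members, those of library 2 correlated at 0.41 (Spearman).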

Additional observations from a re-analysis of the deposited data

Results flagged for a closer look

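The interaction of genotype and PEG was called for 113 of the 167 members in limma's fit over all genes (adjusted p under 0.05), each with a smaller PEG response in OE than in WT, against 4% of all genes tested. It is listed because the PEG effect differed between the genotypes by a test of the difference itself. The interaction equals the genotype difference on PEG minus that on control medium, both of which chose the members, so the count describes them and is no independent evidence. Among the alternatives, it was 75 with limma-voom on recovered reads and 98 with the replicate block.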

How the results depend on the processing

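The rule chose 99 genes with a WT response of at least 3 and 115 to 222 under the other settings. With a pseudocount of 0.1 the members' median OE response was 1.78 and the median share kept 0.50. Medians of the WT response and of the genotype differences moved by less than the spread between libraries. They were compared only under settings that kept the rule's thresholds on these differences. Genes called for PEG in OE numbered 519, with 265 when only the groups compared were fitted, 149 with the replicate block and 242 to 583 with 1 library left out; members called numbered 104, 41 with the replicate block and 68 to 105 with 1 library left out. Genotype on PEG called 3620 genes, 2174 with the replicate block and 1660 to 3773 with 1 library left out. On control medium it called 5080 genes, 3325 when only the groups compared were fitted, 3138 with the replicate block and 3118 to 5716 with 1 library left out; members called lower in OE numbered 8, 5 in the smaller fit and 4 to 11 with 1 library left out. The interaction called 1873 genes, 848 with the replicate block and 894 to 2050 with 1 library left out; members numbered 113, 75 with limma-voom and 100 to 139 with 1 library left out. The largest losses came without library 1 of OE on PEG for PEG in OE (242), library 3 of WT on PEG for genotype on PEG (1660), library 2 of the WT controls for genotype on control medium (3118) and library 1 of WT on PEG for the interaction (894). The smaller fits have fewer samples; the cause of the other shifts was not tested. The share of genotype calls that were higher in OE was 62.8% on control medium and 63.4% on PEG, and 46.1% and 43.8% with median-ratio scaling. Leaving out both library 2 of the WT controls and library 4 of OE on PEG, an alternative chosen after seeing the data, gave 154 members with a median share of 0.33. Of 986 values of named genes under the alternatives, 0 reversed and 21 moved by more than the spread. These values were the WT response and the genotype difference on PEG, which chose the members, so the lack of reversals is no independent evidence. Whether the replicate block is a pairing of the design cannot be told from the labels or from these deviations between libraries. Depth limits members with few reads in OE.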
